A study of Mus musculus with 6 samples.

Results

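The sialyltransferases described here are 9 genes, St8sia4, St8sia1, St3gal1, St3gal2, St3gal3, St3gal4, St3gal5, St3gal6 and St6gal1, out of 18193 genes measured. They were taken by gene symbol with all of their 22 probe sets, out of 45037 probe sets on the array that are not controls. A probe set is a group of short probes for transcripts of 1 gene. The genes were chosen by their difference with doxycycline within each set of arrays: St8sia4 and St3gal2 were already known to be higher with doxycycline in these data. Differences with doxycycline are therefore given as a description. The series holds 6 arrays of RNA from Ba/F3 cells, an interleukin-3-dependent mouse haematopoietic line of BALB/c background that the labels call leukemia cells, grown in medium with WEHI-3 supernatant. All cells, controls included, carried the fusion PAX5-KIDINS220 in a Tet-on retroviral system. The 3 Dox(-) samples had no doxycycline and the 3 Dox(+) samples had 500 ng/mL, which switches the fusion on, and RNA was taken after 24 h. The stated aim was to find pathways on which the fusion acts. Neither separate cultures nor a single clone is named in the labels, so p-values reflect only how these arrays vary, and that variation may be technical.

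Sialyltransferases are Golgi enzymes that move sialic acid from its activated form, CMP-sialic acid, onto the ends of sugar chains. The St3gal and St6gal enzymes cap galactose by different linkages, and the St8sia enzymes add sialic acid to sialic acid already in place. In blood cells the capped chains are ligands of Siglecs and selectins, and the caps shield galactose from lectins.

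Array codes in the sample titles split the arrays into 2 whose codes start with EA15 (1 Dox(-), 1 Dox(+)) and 4 whose codes start with EA20 (2 of each). The labels do not say what the codes mark. Within the EA20 set the codes of the Dox(+) arrays come before those of the Dox(-) arrays, and a difference that follows this order cannot be told apart from treatment. The 2 sets differed far more than the treatments did. With both terms in 1 limma fit (Benjamini-Hochberg adjusted p under 0.05), 13.4% of probe sets were higher and 11.4% lower in the EA20 set. A probe set is called dim here where its mean signal over the 6 arrays was below 36.3, the 40th percentile of all probe sets. Among markers of the line, the interleukin-3 receptor chains Il3ra and Csf2rb and the leukocyte antigen Ptprc read 296 to 897.6, 8398 to 22447 and 7450 to 17687, while Kit was dim (4.40 to 68.1). Of these 5 markers (Csf2rb2 is the remaining one), 4 were higher in the EA20 set. Ratios of 3' to 5' signal, a sign of RNA quality, were 0.637 to 0.684 for Gapdh in Dox(-) and 0.656 to 0.688 in Dox(+) (two-sided exact permutation test, p = 0.80, where 0.10 is the smallest possible).

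St8sia4 makes polysialic acid, a long chain of sialic acid carried by a few surface proteins such as Ncam1 and Nrp2. It was higher in Dox(+) than in Dox(-) samples. Probe set 1419186_a_at read 3986, 4333 and 4206 in Dox(-) and 6914, 9223 and 9556 in Dox(+), where the first array of each group is the EA15 one. All 3 Dox(+) arrays lay above all 3 Dox(-) arrays, and the EA15 array was the lowest of each group. The means were 4175 ± 175 and 8564 ± 1439 (SD, n = 3 each). On the log2(signal + 16) scale, on which all differences here are given, the difference was 1.02 (SE 0.08), which is 2.03-fold with a 95% interval of 1.79 to 2.30. By p-value it ranked 1 of all 45037 probe sets, but the gene was chosen on this comparison, so the rank is a description. The dimmer probe set 1430391_a_at read 204, 230 and 232 in Dox(-) and 353, 505 and 473 in Dox(+), and again the groups did not overlap. Its difference was 0.94 (SE 0.12), or 1.92-fold (1.59 to 2.30). Both probe sets end in _a_at, the array maker's mark for probes shared by several transcripts of a gene, so they do not tell isoforms apart.

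St8sia4 was higher with doxycycline in both sets of arrays. It was chosen on its differences within these sets, so their agreement is a description and not a further test. In the EA15 set, with 1 array against 1, the probe sets differed by 0.79 and 0.75, and in the EA20 set by 1.13 (SE 0.07) and 1.03 (SE 0.12). These are 1.73- and 1.68-fold against 2.19- and 2.05-fold. The difference between the 2 responses of 1419186_a_at was 0.34 (SE 0.12, limma interaction adjusted p = 0.83 over all probe sets, unadjusted 0.025). As EA15 holds 1 array of each group, the spread in this test comes from the EA20 arrays only. Over all probe sets the interaction called 0 at an adjusted p under 0.05, and 2697 (5.99%) at an unadjusted p under 0.05, with 1 of the 22 sialyltransferase probe sets among them. Without a term for the trend of spread with signal it also called 0, and 2952 unadjusted.

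The promoter window of St8sia4 is shown because this gene had the smallest p-value of the 9, and that of St3gal4 because its difference had the smallest SE of the 22 probe sets (0.06). The sequences are RefSeq's, build GRCm38.p6, from 250 bases before to 50 after the start of the gene, on the minus strand at chr1:95667545-95667844 for St8sia4 and chr9:35116815-35117114 for St3gal4. Capitals mark GC boxes (GGGCGG or its reverse complement), to which SP1 binds.
St8sia4: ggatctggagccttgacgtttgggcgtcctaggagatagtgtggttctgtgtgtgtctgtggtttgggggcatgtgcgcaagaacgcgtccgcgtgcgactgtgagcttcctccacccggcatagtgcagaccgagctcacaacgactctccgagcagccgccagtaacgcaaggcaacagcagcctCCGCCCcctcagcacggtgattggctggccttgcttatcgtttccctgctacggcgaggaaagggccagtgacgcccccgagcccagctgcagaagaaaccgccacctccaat
St3gal4: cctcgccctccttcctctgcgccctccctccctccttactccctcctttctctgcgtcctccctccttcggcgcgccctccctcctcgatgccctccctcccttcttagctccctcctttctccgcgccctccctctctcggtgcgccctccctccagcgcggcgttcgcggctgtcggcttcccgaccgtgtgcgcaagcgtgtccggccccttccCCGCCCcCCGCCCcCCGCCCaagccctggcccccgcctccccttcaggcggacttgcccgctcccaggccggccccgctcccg

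The table of promoters held 10 windows of 7 of the 9 genes; St3gal1 and St3gal2 had none in it. The St8sia4 window held 1 GC box and 22 CpG dinucleotides, and the St3gal4 window 3 GC boxes and 31 CpG, against a median of 7 CpG over all 32851 windows of this length. GC boxes were in 7 of the 10 windows, and in 35.7% of all windows. Other motifs were searched on both strands as exact letters. GCGTGAC, the core of the PAX5 paired-domain site, was in 0 of the 10 windows and in 2.09% of all. The STAT5 site TTCNNNGAA was in 0 (8.30% of all), the ETS core CCGGAAG in 0 (8.86%), the E-box CACGTG in 0 (7.15%) and TATAAA in 0 (13.6%). The GATA site AGATAA was in 2 windows, 1 each of St3gal6 and St6gal1 (11.2% of all). The absence of a match says only that these letters are not in the window.

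**Figure D1:**
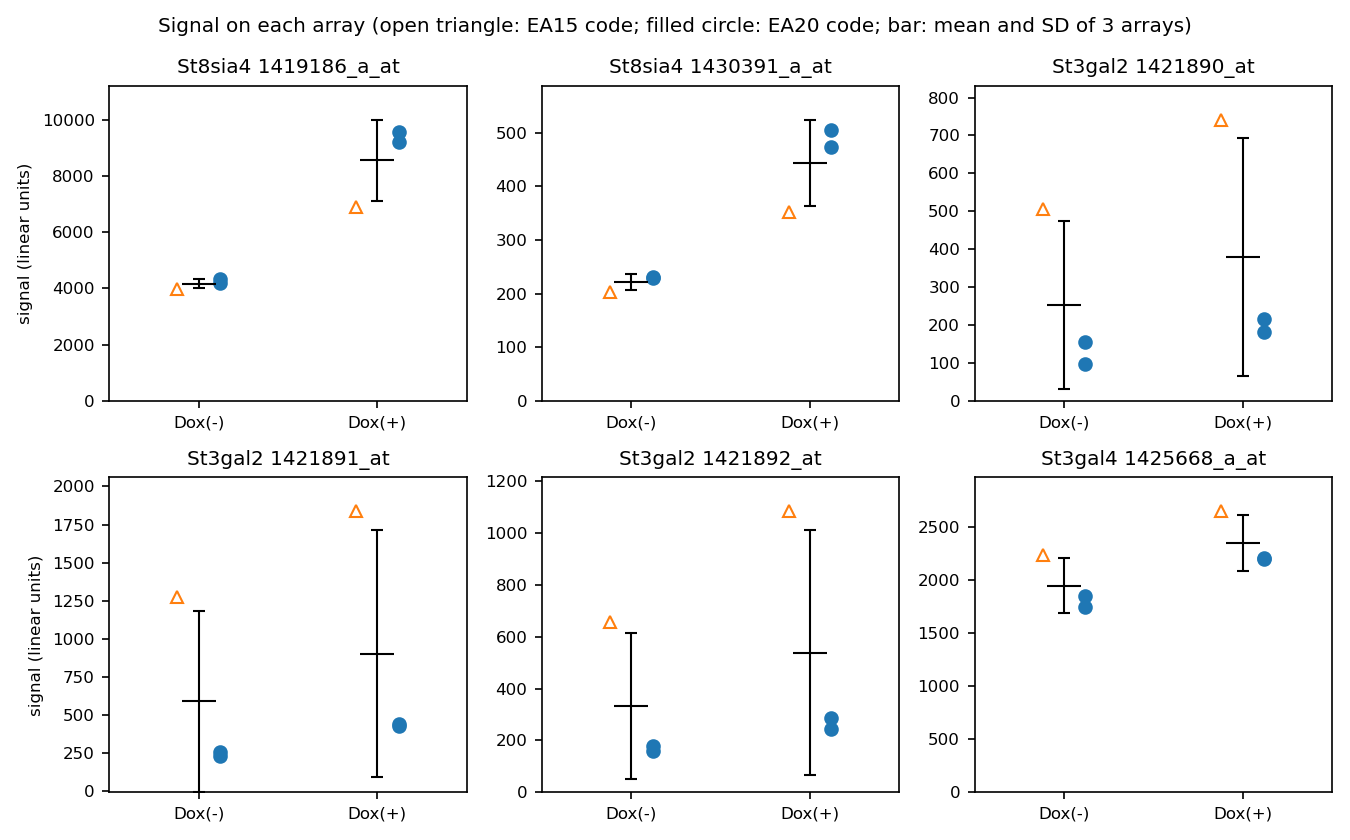
Signal (linear units) of the 6 probe sets of St8sia4, St3gal2 and St3gal4 on each array, for Dox(-) and Dox(+); triangles are EA15 arrays, circles EA20 arrays, and bars the mean and SD of 3 arrays. Both St8sia4 probe sets separate the treatments, while the St3gal2 probe sets separate the array sets (231 to 436 in EA20 against 1274 and 1839 in EA15 for 1421891_at) and are higher with doxycycline within each.

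St3gal2 caps galactose on O-linked chains and on gangliosides. It was higher with doxycycline within each set of arrays, and far higher in the EA15 set whatever the treatment. Probe set 1421891_at read 1274 without and 1839 with doxycycline in the EA15 set. In the EA20 set it read 231 and 255 without and 425 and 436 with doxycycline. Within each set the Dox(+) arrays were the higher ones, but over all 6 arrays the groups overlapped. The difference with the array set as a block was 0.70 (SE 0.09), or 1.62-fold (1.40 to 1.88), from 0.52 in the EA15 set and 0.79 (SE 0.13) in the EA20 set. Probe set 1421892_at read 658 and 1083 in the EA15 set, 178 and 161 in EA20 Dox(-) and 246 and 285 in EA20 Dox(+). Its difference was 0.64 (SE 0.11), or 1.55-fold. Probe set 1421890_at read 506 and 742, then 98.7 and 154, then 182 and 215 in the same order, a difference of 0.59 (SE 0.17). The 3 probe sets thus gave differences from 0.59 to 0.70.

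St3gal4, which caps galactose on N-linked and other chains and takes part in making selectin ligands, has 1 probe set, 1425668_a_at. It read 2239, 1848 and 1751 in Dox(-) and 2648, 2194 and 2205 in Dox(+). Within each set the Dox(+) arrays were higher, and over all arrays the groups overlapped, since the EA15 Dox(-) array read above both EA20 Dox(+) arrays. The difference was 0.27 (SE 0.06), or 1.21-fold (1.10 to 1.33), and it was 0.24 in the EA15 and 0.29 (SE 0.07) in the EA20 set. St3gal3, an enzyme of N-linked chains, had differences of 0.24 (SE 0.12) for 1450406_a_at and 0.26 (SE 0.21) for 1421915_a_at. The first read 385, 293 and 295 in Dox(-) and 397, 351 and 404 in Dox(+), so that its groups overlapped through the EA15 Dox(-) array. The second read 140.0, 107 and 160.0 in Dox(-) and 151, 177 and 166 in Dox(+), and its groups overlapped too. In both probe sets the difference in the EA15 set, 0.04 and 0.10, was smaller than in the EA20 set, 0.34 and 0.35.

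St3gal1 caps galactose on core O-linked chains, as on the leukocyte sialoprotein Spn (CD43). Its probe set 1418946_at read 97.2, 146 and 137 in Dox(-) and 62.3, 122 and 166 in Dox(+), a difference of -0.17 (SE 0.24). The sets of arrays did not give 1 sign: -0.53 in EA15 and 0.01 in EA20. The second probe set, 1441216_at, read 7.97, 61.7 and 99.1 in Dox(-) and 17.5, 75.7 and 36.3 in Dox(+), a difference of -0.14 (SE 0.41), at 0.48 and -0.45 in the sets. St6gal1 makes the sialic acid cap that the B cell lectin Cd22 binds, and its signals were low. Its brighter probe set 1420928_at read 24.1, 79.9 and 66.4 in Dox(-) and 21.7, 44.2 and 26.8 in Dox(+), a difference of -0.57 (SE 0.36). The groups overlapped, and the 2 EA15 arrays were the lowest of their groups. The other probe set, 1420927_at, lay between 3.21 and 39.7, at -0.36 (SE 0.41).

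St3gal5, which makes the ganglioside GM3, and St8sia1, which makes GD3 from it, had low signals. St3gal5 read 48.6, 12.1 and 55.6 in Dox(-) and 11.9, 69.6 and 63.0 in Dox(+) by 1449198_a_at, a difference of 0.18 (SE 0.53) that was -1.21 in EA15 and 0.87 in EA20. Its second probe set, 1460241_a_at, stayed between 1.60 and 5.44. All 3 St8sia1 probe sets were dim, with signals of 0.982 to 33.6 over all arrays and differences of -0.24, 0.31 and 0.41 (SE 0.40, 0.36 and 0.36). St3gal6, which takes part in selectin ligand synthesis, has 5 probe sets, 4 of them dim. The brighter one, 1447841_x_at, read 576, 245 and 116 in Dox(-) and 352, 94.2 and 224 in Dox(+), a difference of -0.36 (SE 0.32). The ending _x_at marks probes that may also bind other transcripts. Of the dim ones, 1449078_at read 18.4, 7.20 and 7.29 in Dox(-) and 1.15, 0.971 and 2.09 in Dox(+), so that its groups did not overlap, at -0.61 (SE 0.24). The remaining 3 differed by 0.27, 0.59 and -0.05, so the 5 probe sets of St3gal6 did not share a sign.

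**Figure D2:**
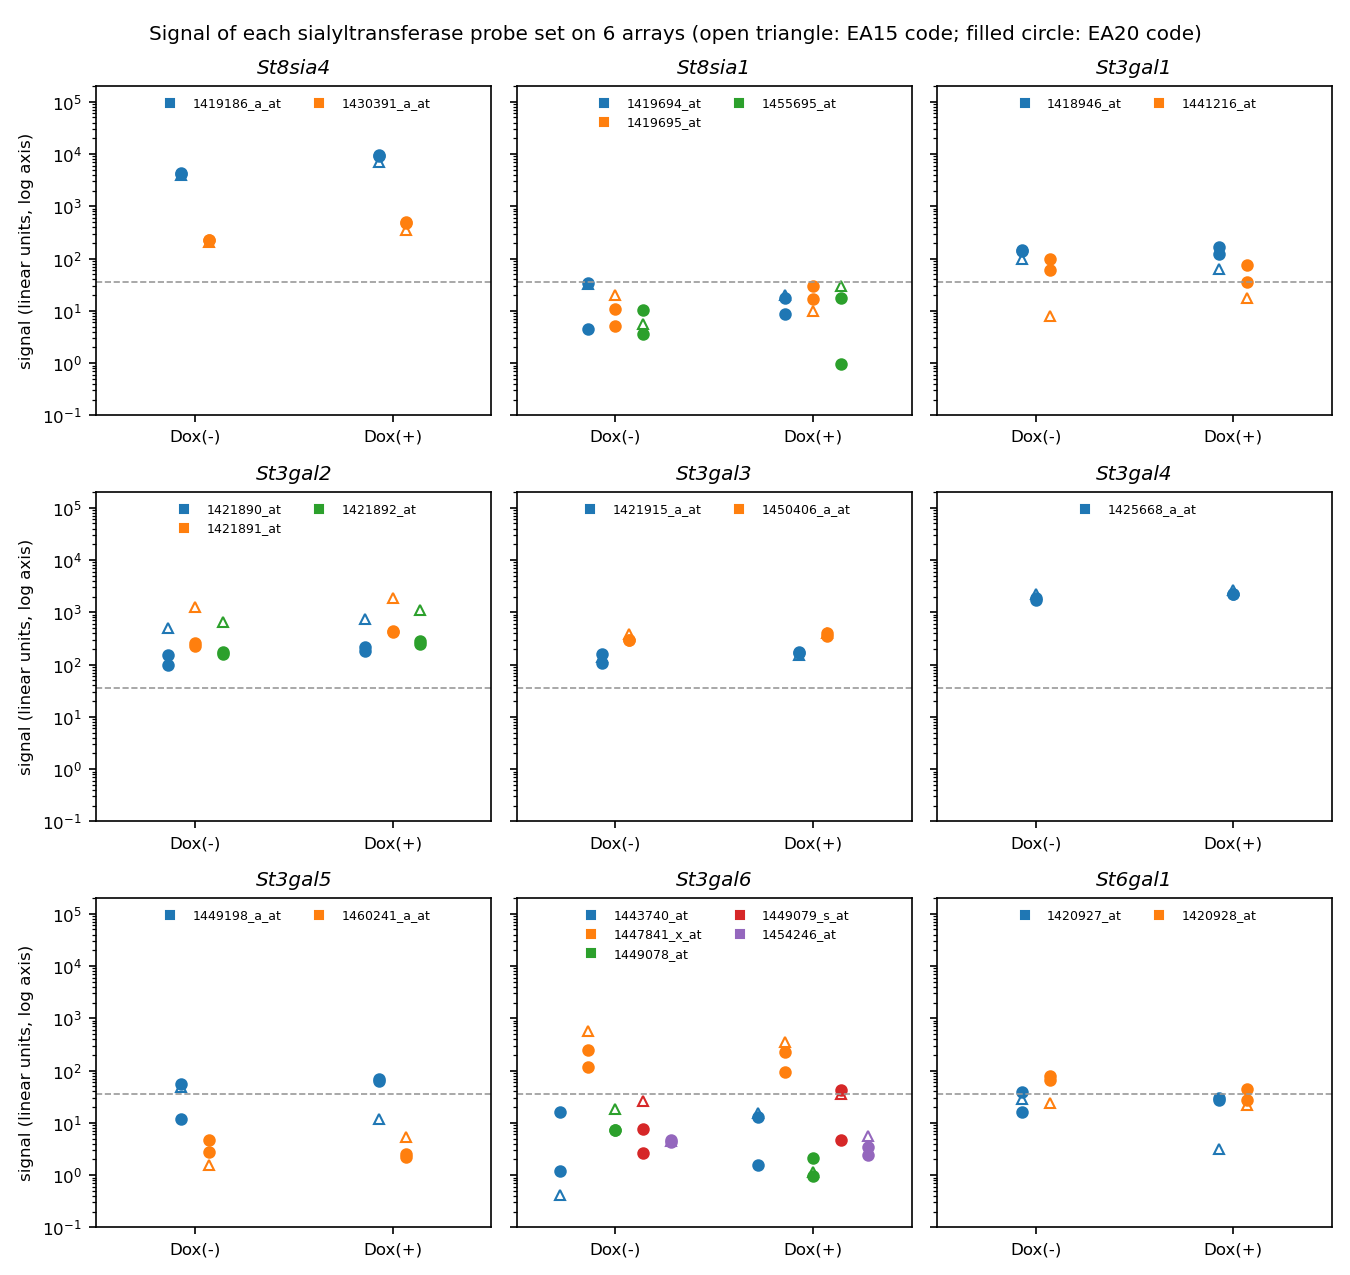
Signal (log axis) of all 22 probe sets by gene, for Dox(-) and Dox(+); colours are probe sets, triangles EA15 arrays and circles EA20 arrays, and the dashed line is the limit of 36.3 below which a mean counts as dim. St8sia4, St3gal2, St3gal3 and St3gal4 lie wholly above the line, and St8sia1 wholly below it.

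Of the 22 probe sets, 13 were not dim, and these came from 8 of the 9 genes, all but St8sia1. By the fit with the array set as a block, 3 probe sets were called higher with doxycycline (limma adjusted p under 0.05 over all 45037), both of St8sia4 and 1421891_at of St3gal2, and 0 lower. Over all probe sets 0.0577% were called higher and 0.0289% lower. As the genes were chosen on this comparison, nothing is read from the count. In 2 probe sets the 3 Dox(+) arrays lay wholly above the 3 Dox(-) arrays (both of St8sia4; 3.75% of all probe sets), and in 1 wholly below (1449078_at of St3gal6; 3.99% of all). The largest p-value of the 3 called was that of 1421891_at of St3gal2 at 0.70 (limma adjusted p = 0.047). Next by p-value among the 22 was 1421892_at of St3gal2 at 0.64 (limma adjusted p = 0.12). The St3gal4 probe set followed at 0.27 (limma adjusted p = 0.20). The difference was positive in 14 and negative in 8 of the 22, with a median of 0.25, against a median of -0.01 and 48.6% positive over all probe sets. By the brightest probe set of each gene, 5 of 9 were positive, with a median of 0.18. That median is the value of 1449198_a_at of St3gal5 (SE 0.53), which was -1.21 in EA15 and 0.87 in EA20. Over all genes by this measure 50.7% were positive, with a median of 0.0037. The genes were chosen on this comparison, so nothing is read from these medians and signs either.

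Probe sets of 1 gene varied together for St8sia4 and St3gal2 and less so for the others. Over the 6 arrays the 2 St8sia4 probe sets had a Pearson r of 0.99, and the 3 pairs of St3gal2 probe sets had r of 0.98 to 0.99. The r was 0.62 for St3gal1, 0.44 for St3gal3 and 0.44 for St6gal1. It was -0.90 for St3gal5, whose second probe set is dim, from -0.03 to 0.31 for St8sia1, and from -0.53 to 0.70 for St3gal6. These values share arrays and treatments and are a description. The sign of the doxycycline difference was the same in every probe set for 6 of the 8 genes that have several, all but St8sia1 and St3gal6. It was the same in the EA15 and EA20 sets for 10 of the 13 probe sets that were not dim. The number was 14 of all 22, beside 53.2% over all probe sets of the array. The genes were chosen on these differences, so nothing is read from these counts.

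**Figure D3:**
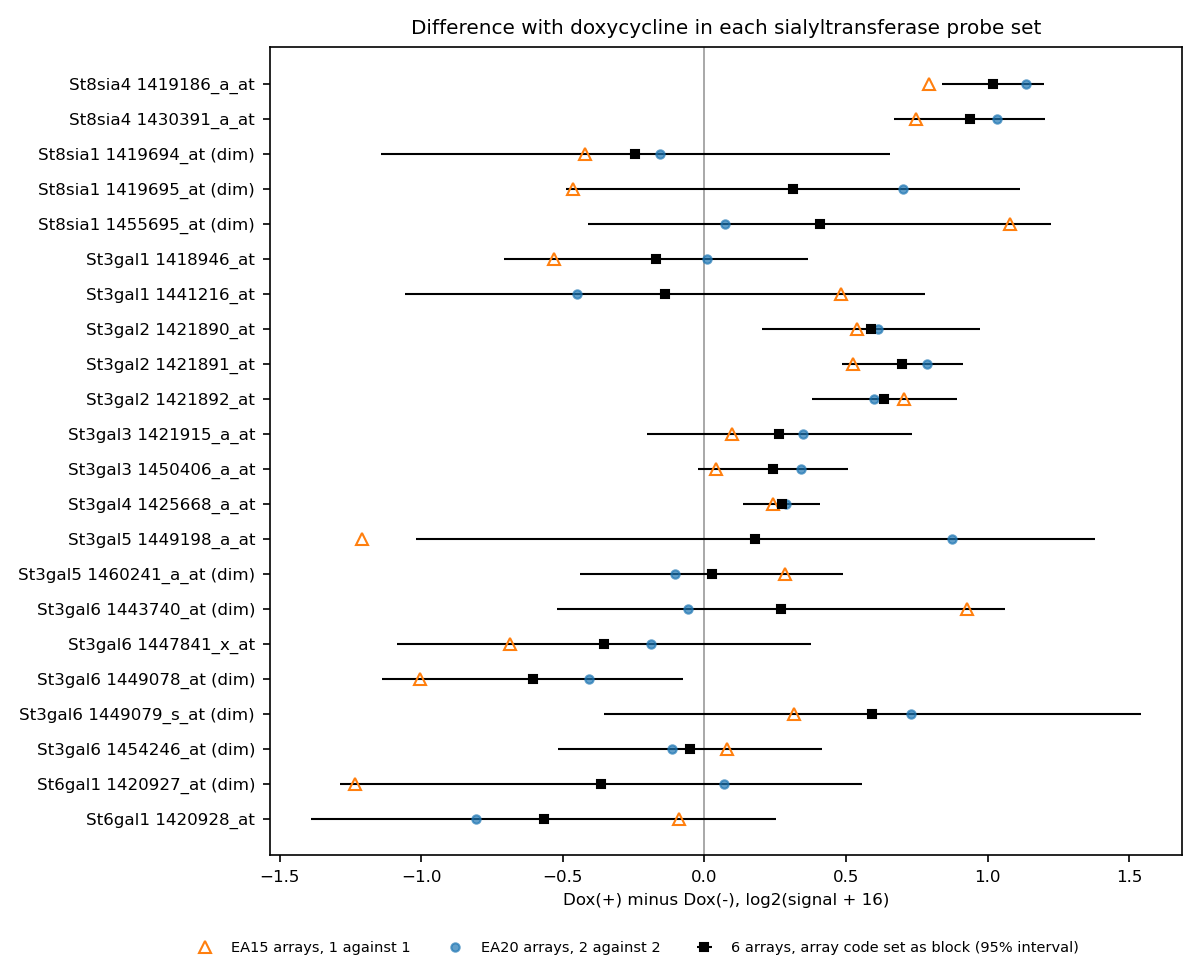
Difference with doxycycline, on the log2(signal + 16) scale, for each probe set: squares with 95% intervals are the fit of 6 arrays with the array set as a block, triangles the EA15 set (1 against 1) and circles the EA20 set (2 against 2). St8sia4 sits between 0.75 and 1.13 in both sets, St3gal2 between 0.52 and 0.79, and St3gal4 at 0.24 and 0.29, while 8 of the 9 dim probe sets have intervals that include 0.

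The calls for St8sia4 and St3gal2 were lost under several settings. Without the trend of spread with signal no probe set of the array was called (0 of 45037, and 3243 at an unadjusted limma p under 0.05), with 1419186_a_at at a limma adjusted p of 0.55. Without the block no probe set of the array was called (0 of 45037, and 1341 at an unadjusted limma p under 0.05), and none was when either EA20 Dox(-) or either EA20 Dox(+) array was left out. In those 4 fits the difference of 1419186_a_at of St8sia4 was 0.97 or more, with limma adjusted p from 0.081 to 0.18, and that of 1421891_at of St3gal2 between 0.64 and 0.71, with limma adjusted p from 0.25 to 0.27. Without the EA15 Dox(-) or the EA15 Dox(+) array 1419186_a_at remained called, while 1421891_at was at 0.79 with a limma adjusted p of 0.075 or 0.081. In the same fits 1430391_a_at was at 1.03 with a limma adjusted p of 0.056 or 0.068.

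The difference between the sets of arrays did not enter the choice of the genes, and it was tested in the same fit. Of the 22 probe sets 2 were higher and 5 lower in the EA20 than in the EA15 set, beside the 13.4% and 11.4% of all probe sets given above. What sets these arrays apart is not stated, so cells, culture and array handling cannot be told apart. All 3 probe sets of St3gal2 were lower in the EA20 set: 1421891_at by 4.55-fold, at -2.19 (SE 0.10, limma adjusted p = 6.9e-07), 1421892_at at -1.92 (SE 0.12, limma adjusted p = 3.9e-06) and 1421890_at at -1.86 (SE 0.18, limma adjusted p = 4.6e-05). These 3 calls held in all 11 alternatives run. St3gal6 was lower by its brighter probe set 1447841_x_at, at -1.42 (SE 0.34, limma adjusted p = 0.012), with means of 464 in EA15 and 169.9 in EA20; without the EA15 Dox(-) or Dox(+) array it was -1.18 or -1.67 (limma adjusted p = 0.21 or 0.083). St3gal4 was lower by a small step, -0.29 (SE 0.06, limma adjusted p = 0.0077), which was -0.27 without the EA15 Dox(-) array (limma adjusted p = 0.076). St3gal1 was higher in EA20 by 1441216_at, at 1.51 (SE 0.43, limma adjusted p = 0.029), and its brighter probe set stood at 0.74 (SE 0.25, limma adjusted p = 0.062). The value of 1441216_at was 1.05 to 1.98 without any 1 of the 2 EA15 arrays, the 2 EA20 Dox(-) arrays or the first EA20 Dox(+) array, with limma adjusted p from 0.054 to 0.33. St8sia4 was higher by 1419186_a_at, at 0.27 (SE 0.08, limma adjusted p = 0.044), but without the EA15 Dox(+) array the value was 0.10. This call held in 5 of 11 alternatives. The other St8sia4 probe set, 1430391_a_at, was not called, at 0.31 (SE 0.13, limma adjusted p = 0.12). In Dox(-) alone, 1419186_a_at read 3986 in EA15 and 4333 and 4206 in EA20.

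**Figure D4:**
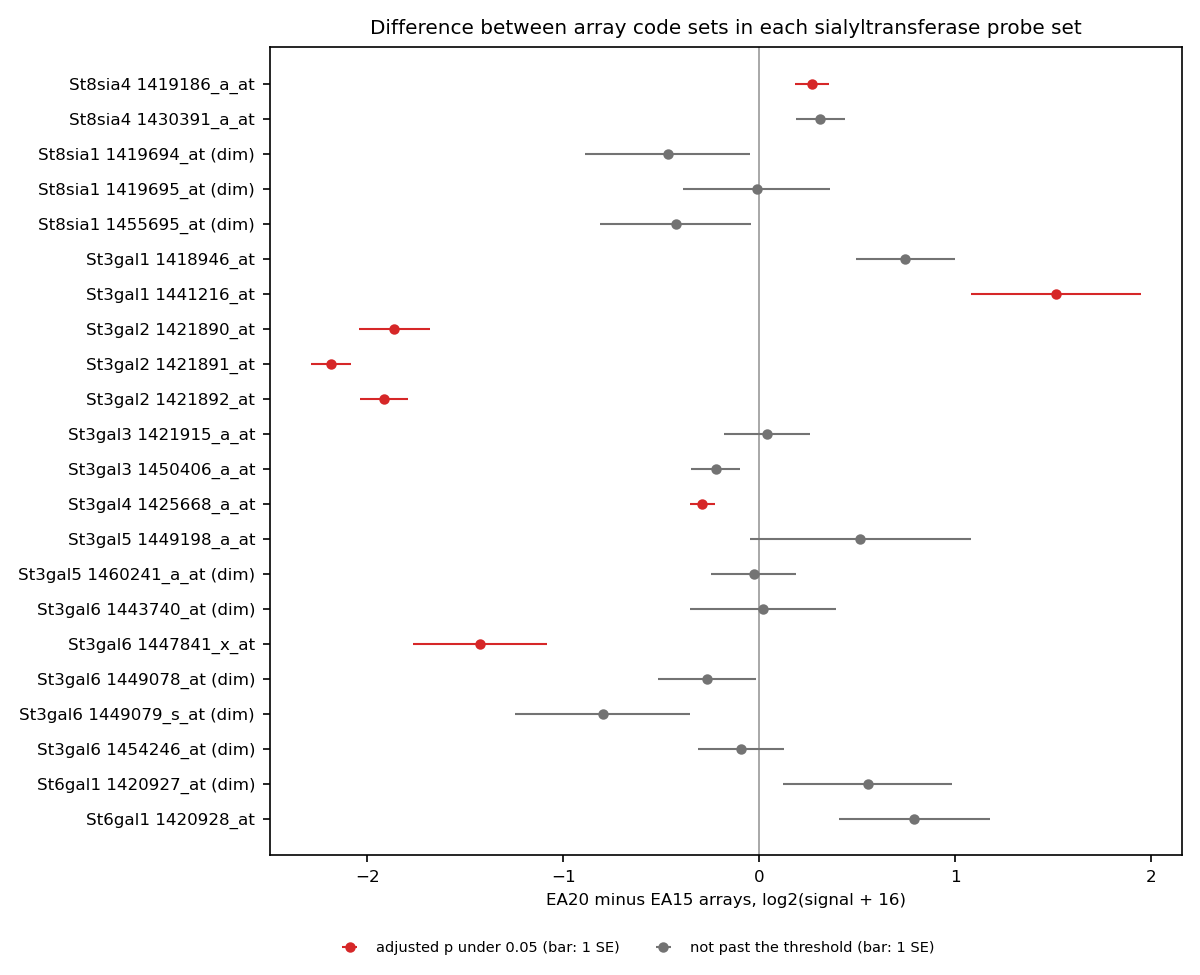
Difference between the EA20 and EA15 arrays, on the log2(signal + 16) scale, for each probe set, with bars of 1 SE; red marks an adjusted p under 0.05. The 3 St3gal2 probe sets lie between -2.19 and -1.86, below all other probe sets, and 1441216_at of St3gal1 lies at 1.51.

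The other sialyltransferase genes of the mouse did not pass with doxycycline. All 11 were measured, and by the brightest probe set of each gene 0 were higher and 0 lower (median 0.06, 6 of 11 positive). Over all 18193 genes by this measure, 0.104% were called higher and 0.0385% lower, with a median of 0.0037. The smallest p-values were those of St8sia3 at -0.96 (SE 0.41), which was dim, St6galnac4, an enzyme of O-linked chains and gangliosides, at -0.19 (SE 0.11), and St6galnac3 at -0.58 (SE 0.49). St6galnac3 was dim too, and its difference was -1.60 in the EA15 set and -0.07 in the EA20 set. St8sia2, the other polysialic acid synthase, read 42.0 to 137 and differed by 0.06 (SE 0.39). Between the sets of arrays 1 of the 11 was lower in EA20, St6galnac4 at -1.23 (SE 0.12, limma adjusted p = 4.4e-05), and 0 were higher, against 15.8% lower and 16.8% higher over all genes. It read 717 and 749 in EA15 and 262 to 341 in EA20, on the same side as St3gal2.

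Of the genes that supply and remove sialic acid none passed with doxycycline in the limma fit (0 higher and 0 lower of 13 measured, median -0.0004). Over all genes by the brightest probe set, 0.104% were called higher and 0.0385% lower. Cmas, which makes CMP-sialic acid, differed by 0.11 (SE 0.06), Slc35a1, which carries it into the Golgi, by -0.05 (SE 0.07), Gne, which starts sialic acid synthesis, by -0.17 (SE 0.09), and Nans, the sialic acid synthase, by -0.0004 (SE 0.06). The smallest p-values were those of Npl, which breaks down sialic acid, at 0.17 (SE 0.07), the plasma membrane sialidase gene Neu3 at -0.52 (SE 0.21) and Ctsa, the protective protein of the lysosomal sialidase, at 0.13 (SE 0.06). Neu3 read 150, 239 and 176 in Dox(-) and 94.3, 118 and 170.1 in Dox(+). Between the sets 5 of the 13 were higher in EA20 (Npl, Ctsa, Neu1, Siae and Casd1, by 0.38 to 1.22) and 1 was lower (Nans, -0.52), beside 16.8% higher and 15.8% lower over all genes.

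Of 8 measured Siglecs, lectins that bind sialic acid, 6 had a positive difference and 2 a negative one (median 0.08). Over all genes by the brightest probe set, 0.104% were called higher and 0.0385% lower. Of the Siglecs 0 were called lower, and the 1 called higher was Siglecf, an inhibitory Siglec of eosinophils. It read 105, 810 and 680 in Dox(-) and 206, 1526 and 1407 in Dox(+), a difference of 0.94 (SE 0.10, limma adjusted p = 0.019); this rise was known when the list was drawn up. Its level followed the array sets more than the treatment, with EA20 higher by 2.69 (SE 0.10), as were Cd33 at 1.76 and Mag at 0.90. Cd22 read 60.0 to 93.2 and differed by 0.09 (SE 0.29). Of the selectin genes, Selp read 154 to 265 and differed by 0.24 (SE 0.15). Sele, which was dim, read 13.8 to 51.8 and differed by 0.26 (SE 0.41). Of these 2 genes 0 passed in either comparison.

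Enzymes that build the chains on which the sialyltransferases act did not pass with doxycycline either. Over all genes by the brightest probe set, 0.104% were called higher and 0.0385% lower. Counts of 0 in lists of this size therefore do not show that the genes were unchanged. In ganglioside synthesis 0 of 5 passed (median 0.05), with the smallest p-value for Ugcg, which makes glucosylceramide, at -0.47 (SE 0.12), then B3galt4 at 0.28 (SE 0.37) and B4galt6 at 0.24 (SE 0.37). Of 9 genes of core O-linked chains and selectin ligands 0 passed (median -0.003), with Galnt3 at -0.46 (SE 0.14), C1galt1c1 at 0.12 (SE 0.07) and Gcnt3 at 0.57 (SE 0.36) first by p-value. Gcnt3 was dim. Of 12 genes of N-linked chains 0 passed (median 0.11), with B4galt3 at 0.23 (SE 0.08), B4galt1 at -0.17 (SE 0.06) and Mgat5 at 0.18 (SE 0.08) first. Of 10 proteins that carry sialylated chains 0 passed (median 0.14), with the selectin ligand Selplg at 0.23 (SE 0.08), Spn at 0.17 (SE 0.07) and Ptprc at 0.14 (SE 0.06) first. The known carriers of polysialic acid were low, Ncam1 at 11.5 to 38.9 and Nrp2 at 8.54 to 65.5.

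Some genes of these lists differed between the sets of arrays. The selectin ligand fucosyltransferase Fut7 read 364 and 328 in EA15 and 1933 to 2405 in EA20, a difference of 2.66 (SE 0.10). Gcnt1, which branches O-linked chains, read 588 and 530 in EA15 and 2310 to 3052 in EA20, at 2.19 (SE 0.10), and C1galt1, which makes core O-linked chains, was at 1.20 (SE 0.11). In that list 3 were higher and 1 lower in EA20, in the N-linked list 6 and 1, in the ganglioside list 1 and 1, and among the carriers 4 and 0 (Spn, Selplg, Ptprc and Cd44, by 1.04 to 1.87). The lists hold 9, 12, 5 and 10 genes, and over all genes 16.8% were higher and 15.8% lower. St3gal2 and St6galnac4, by contrast, were higher in EA15.

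**Figure D5:**
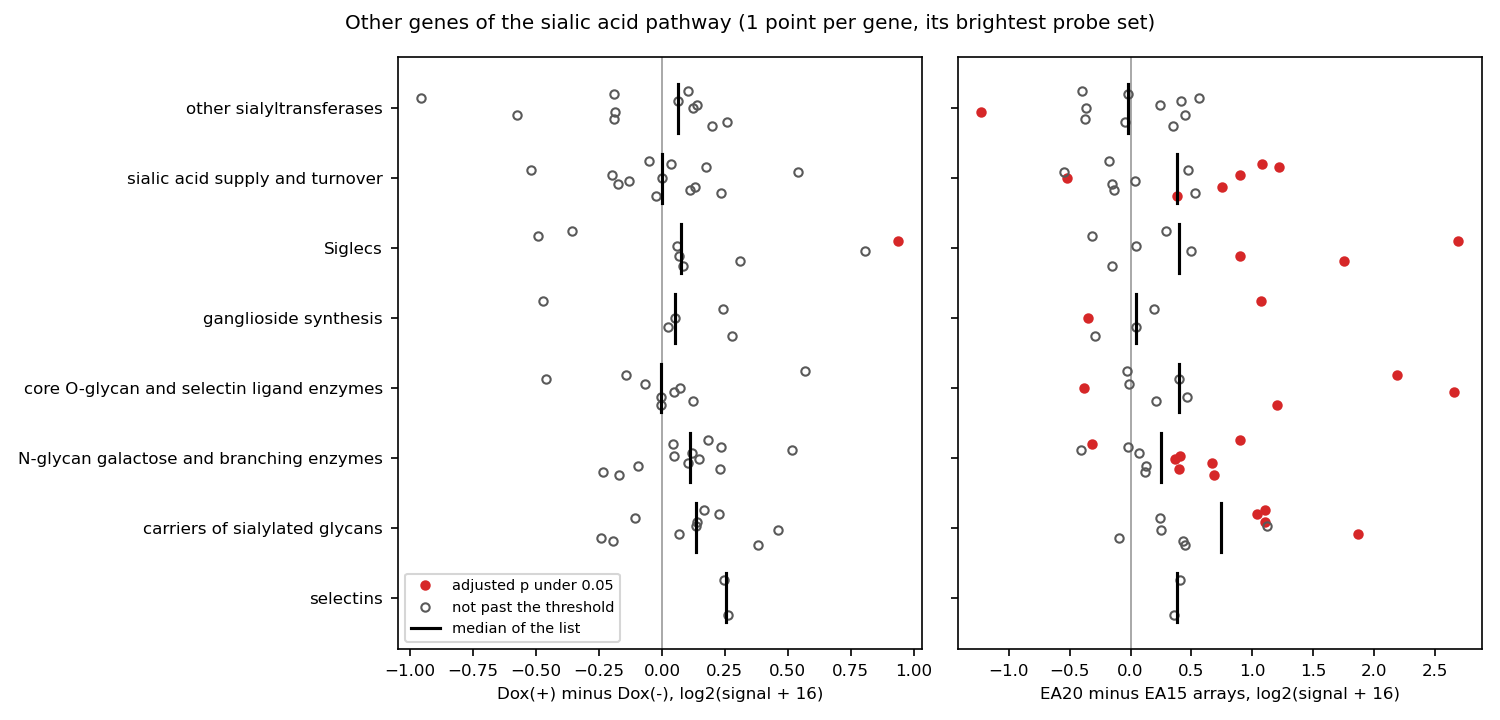
Differences on the log2(signal + 16) scale for 8 lists of related genes, 1 point per gene by its brightest probe set, with doxycycline on the left and between array sets (EA20 minus EA15) on the right; red points have an adjusted p under 0.05 and black bars are list medians. On the left Siglecf, at 0.94, is the single red point; on the right red points reach 2.69 for Siglecf and 2.66 for Fut7.

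Some markers of other blood cells differed between the array sets. Of 7 markers of eosinophils, basophils and mast cells 3 were higher and 0 lower in EA20, beside 16.8% and 15.8% of all genes, and the summed signal of the 7 was 464 and 629 in EA15 against 16442 to 22461 in EA20. Most of it was Prg2, the eosinophil major basic protein, at 148 and 207 against 15405 to 20881. With doxycycline 0 of these 7 passed, beside 0.104% of all genes called higher and 0.0385% called lower. Of the 7, 6 were positive (median 0.50), and the sums were 464 to 16576 in Dox(-) and 629 to 22461 in Dox(+). The smallest p-values were those of Prg2 at 0.41 (SE 0.06, limma adjusted p = 0.055), the eotaxin receptor Ccr3 at 2.14 (SE 0.39, limma adjusted p = 0.13) and the basophil protease Mcpt8, at 0.498 times its Dox(-) level on this scale (limma adjusted p = 0.32). Ccr3 read 4.11 to 6.23 in Dox(-) and 37.1 to 137 in Dox(+). Mcpt8, which was dim, read 18.9 to 36.1 in Dox(-) and 4.79 to 5.77 in Dox(+). Monocyte and neutrophil markers summed to 2668 and 2732 in EA15 and 1641 to 1826 in EA20, with S100a8 at 1500 and 1503 against 105 to 186. In that list of 7, S100a8 and Lyz2 (-0.58) were lower in EA20, while Csf1r (1.40) and Adgre1 (0.40) were higher, and the list median was 0.40. Of the B lineage markers 1 of 6 was higher in EA20, of the T cell markers 1 of 5, of the erythroid markers 2 of 3 and of the fibroblast markers 0 of 5, and 0 of these were lower. Sums for B lineage markers were 612 to 960, for T cell markers 184 to 481, for erythroid markers 1867 to 4698 and for fibroblast markers 104 to 187, and 0 genes of any of these lists passed with doxycycline. Fewer cells of a type and less RNA per cell cannot be told apart in bulk samples, and the part of these markers in the sialyltransferase values was not tested.

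The genes whose signal over the 6 arrays was most like that of St8sia4 were found by Pearson r with 1419186_a_at over 16303 named genes, by the brightest probe set of each. The first 5 were Sh3rf3, Ccdc112, Ydjc, C8b and Cklf, with r of 0.995, 0.988, 0.983, 0.983 and 0.982. Over the 6 arrays 33 of these genes had r above 0.95. Cklf, a chemokine-like factor, read 1032, 980.5 and 919 in Dox(-) and 1426, 1666 and 1683 in Dox(+), the same order of groups and sets as St8sia4 in Dox(+) but not in Dox(-). Ydjc and C8b were dim, at 6.79 to 41.3 and 2.48 to 34.3, and Sh3rf3 read 55.0 to 95.2. In all 5 the 3 Dox(+) arrays were above the 3 Dox(-) arrays and the EA15 array was the lowest in Dox(+), as for St8sia4. This shared order follows from choosing them by r, and nothing is read from it. Of all probe sets 3.75% separated the groups in this direction. Cklf was called with doxycycline (limma adjusted p = 0.035), and the others were not (limma adjusted p from 0.30 to 0.63). These r are a description over 6 arrays.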

How the data were processed

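RNA of 3 Dox(-) and 3 Dox(+) samples was labelled with biotin and read on Affymetrix mouse arrays. Per the submitters' processing notes the authors used Affymetrix Expression Console, and what they deposited is 1 linear intensity for each probe set; its algorithm is not given in the sources used here. Each array has the same mean signal (500.003) after trimming 2% at each end, which hides any change in the total amount of mRNA. Groups came from the source names; replicate numbers follow the order of the samples and pair nothing.

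Of 45101 probe sets 64 controls were left out. Of 45037 tested, 34945 had 1 gene symbol in the platform annotation, 932 several and 9160 none listed; probe sets with 1 symbol gave 18193 genes. Symbols were compared with RefSeq through Entrez identifiers, and 0 changed. Signals were transformed to log2(signal + 16), which understates changes of dim genes. All probe sets were fitted together with limma 3.58.1 (lmFit, eBayes with a mean-variance trend; R 4.3.3), with doxycycline and the array code set as terms, two-sided, Benjamini-Hochberg adjusted over all probe sets, threshold 0.05; a second fit added their interaction. The scripts were tested on simulated data. The members and lists were chosen with earlier results of these data known. Named genes of a list are those past the threshold, else the 3 with the smallest p, and for St8sia4 the 5 most correlated genes, without clone, Gm, Rik and LOC symbols (1881 skipped); other genes named were chosen after their values were seen. The small number of arrays limits the precision. Alternatives were the fit without the block, the EA20 set alone, no trend, a robust prior, quantile normalization, median centring, pseudocounts of 1 and 64, a filter below the 40th percentile of mean signal, array weights, 1 or the mean of all probe sets per gene, a threshold of 0.10 and leaving out each array.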

Additional observations from a re-analysis of the deposited data

How the results depend on the processing

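With doxycycline 39 probe sets were called in all, 3 of them of sialyltransferases. The labels give no replicate numbers, and each EA20 array has a code number of its own, so no paired analysis was run. The EA15 Dox(-) and Dox(+) arrays share a code number. The block is the array code set, which holds them together. The count was 0, with 0 sialyltransferase probe sets, without the block (1341 at an unadjusted limma p under 0.05) and also without the trend (3243). It was 62 with a pseudocount of 1, 7 with one of 64 (1 sialyltransferase probe set), 110 with the filter on dim probe sets, 13 with the mean of all probe sets of a gene (1 of the genes, St8sia4) and 88 at a threshold of 0.10. Leaving out 1 array gave 0 to 37 calls and 0 to 1 of sialyltransferases; the count was 0 without any 1 of the 4 EA20 arrays, with 3242 to 3383 at an unadjusted limma p under 0.05, while without the EA15 Dox(-) or Dox(+) array it was 37 or 34. In these last 2 fits the remaining EA15 array carries no information on doxycycline. The brighter St8sia4 probe set kept a positive difference in 19 of 19 alternatives (0.97 to 1.13) and passed in 13 of them, and 1421891_at of St3gal2 in 19 (0.63 to 0.79) and 6. These tallies include the threshold of 0.10, which is the main fit again, and the mean of all probe sets of the gene. The EA20 set alone and the fits without an EA15 array share the same EA20 difference. As the genes were chosen on this comparison, nothing is read from the tallies. The EA20 set alone gave 56 calls, with both St8sia4 probe sets among them and 1421891_at of St3gal2 at an adjusted p of 0.0999. Between array sets 11176 probe sets were called, 7 of them of sialyltransferases; without the trend these were 7392 and 3, and leaving out 1 array gave 4 to 7 of sialyltransferases, with 4 when either EA15 array was left out. The values of single sialyltransferase probe sets between array sets were recomputed under these settings by a choice made after the data were seen. No sialyltransferase difference that passed in any setting changed sign. With 3 arrays a group the SE was 0.21 to 0.42 for dim probe sets and up to 0.53 for the others, and a dim difference of -0.61 (SE 0.24; 1449078_at of St3gal6) was not called.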
